A study of Mus musculus with 10 samples.

Results

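The genes described here carry the insulin-like growth factor (IGF) and insulin signal from ligand to the first steps inside the cell: the ligands Igf1 and Igf2, the receptors Igf1r, Igf2r and Insr, and the adaptors Irs1, Irs2, Grb10 and Pik3r1. They were chosen by name, and every probe set annotated to one of these 9 symbols alone was taken, 25 of the 45101 probe sets in the deposited table. One further probe set carried both Igf2r and its antisense gene Airn and was left out. The test covered probe sets whose log2 intensity averaged 4 or more over the 10 arrays, a level that 15 of the 25 reached. These 15 stood for 8 of the 9 genes, among 10704 genes kept in all. Irs2 had a single probe set, and it lay under that level.

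RNA came from the gastrocnemius, a muscle of the calf, taken at 7.5 months of age from male C57BL/6-background mice. The Floxed_Mstn group held mice whose myostatin genes were floxed, that is, flanked by the sites at which Cre recombinase cuts, and the WT_Mstn group held mice with normal myostatin genes. Mice of both groups carried the CAGG-CreER transgene, in which a promoter active in most tissues drives a Cre that tamoxifen switches on, and both groups were injected with tamoxifen 8 times from the age of 4 months. Deletion was therefore not confined to muscle by the promoter, and the effects of Cre and tamoxifen are shared by both groups. Each group has 5 arrays, which are taken here as 5 mice. The labels number them as separate samples without saying more, and p-values measure the spread between these samples. No probe set in the annotation used here names Mstn, so the deletion and its extent could not be checked in these arrays.

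IGF-I and IGF-II are secreted growth factors that bind the IGF-I receptor, a tyrosine kinase closely related to the insulin receptor. The active receptors phosphorylate docking proteins of the IRS family, which recruit PI3-kinase and lead to Akt, to protein synthesis and to uptake of glucose. In muscle this pathway drives fibre growth, whereas myostatin limits it. The comparison asks whether transcripts at the head of the growth factor pathway differ between tamoxifen-treated adult mice with floxed and with normal myostatin genes.

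None of the 15 kept probe sets of these genes passed the threshold of 0.05 on the adjusted p (limma, Benjamini-Hochberg over 21154 probe sets), where 0.0993% of all probe sets did, 0.052% higher and 0.0473% lower in Floxed_Mstn. The lowest adjusted p among them was 0.598. At an unadjusted p under 0.05 there was 1 of the 15, an Igf1 probe set, where 7.69% of all probe sets had such a p. No member probe set had groups of arrays that did not overlap, where 2.06% of all probe sets did. By their brightest probe sets 5 genes had higher and 3 lower mean values in Floxed_Mstn muscle, where 49.2% of all probe sets had higher ones. The median difference of those 8 was 0.02 on the log2 scale. Of the 15 kept member probe sets, 7 had higher and 8 lower mean values. Their median difference was -0.037, and that of all kept probe sets was -0.0029. Differences are given throughout as Floxed_Mstn minus WT_Mstn in log2 intensity, so a difference of 1 is a doubling in Floxed_Mstn.

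**Figure D1:**
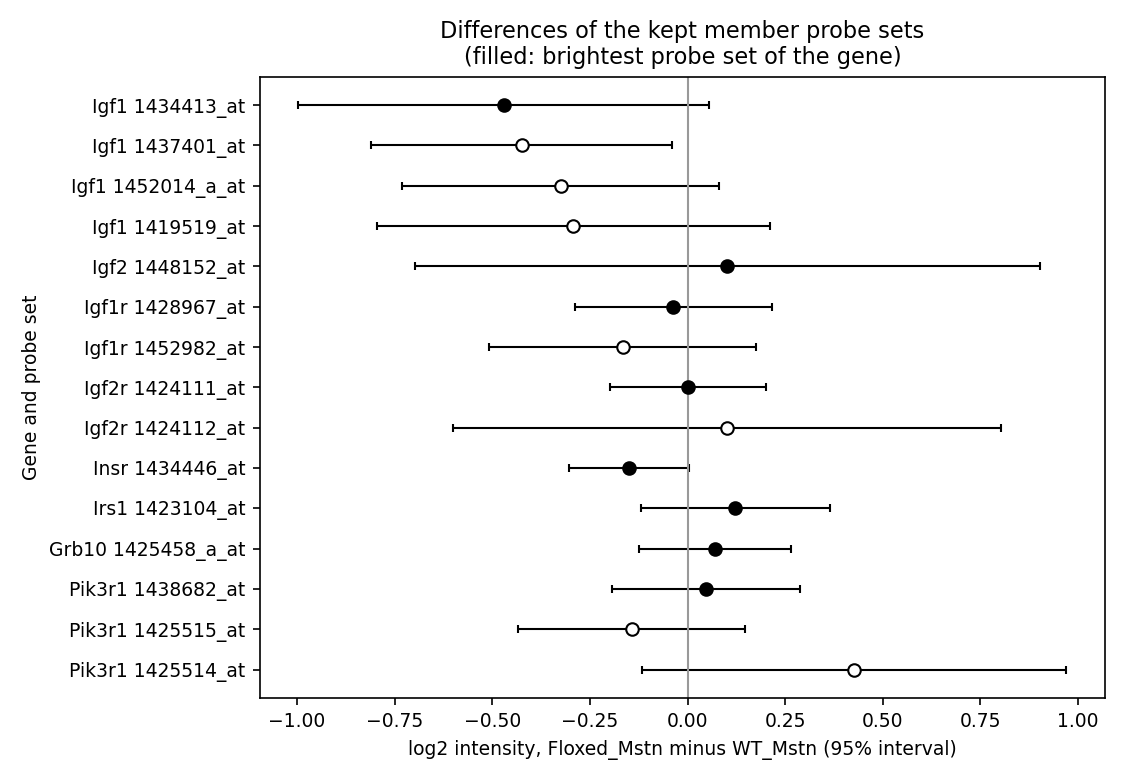
Difference in log2 intensity, Floxed_Mstn minus WT_Mstn, with its 95% interval from limma (horizontal axis) for each of the 15 kept member probe sets (vertical axis), n = 5 arrays per group. Filled points mark the brightest probe set of a gene. The 4 Igf1 probe sets lie between -0.47 and -0.29, and 14 of the 15 intervals include 0.

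Igf1, the ligand made in muscle itself as well as in liver, had lower mean values in Floxed_Mstn muscle on all 4 of its probe sets, none past the threshold. Its brightest probe set (1434413_at) had log2 intensities of 9.06, 9.25, 8.88, 9.51 and 9.25 in Floxed_Mstn mice, against 8.98, 9.38, 9.67, 9.95 and 10.33 in WT_Mstn mice. The groups overlapped, with all 5 Floxed_Mstn mice below the WT_Mstn median and 2 WT_Mstn mice inside the Floxed_Mstn range. The mean was 9.19 ± 0.24 in Floxed_Mstn and 9.66 ± 0.52 in WT_Mstn muscle (SD, n = 5 each), a difference of -0.47 ± 0.24 (SE) or 0.721-fold, with a 95% interval of 0.501-fold to 1.04-fold and a limma adjusted p of 0.716. An exact two-sided permutation test over all assignments of the arrays to the groups gave p = 0.103 for this value, where the smallest p that the test can give is 0.00794.

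The second Igf1 probe set (1437401_at) was the one that limma gave an unadjusted p of 0.0339 (adjusted p = 0.598 by limma). It read 8.85, 9.10, 9.11, 9.07 and 9.16 in Floxed_Mstn mice, against 8.84, 9.43, 9.61, 9.74 and 9.81 in WT_Mstn mice. The Floxed_Mstn values lay close together, and the WT_Mstn mouse of replicate 1 again stood at their level while the other 4 lay above all Floxed_Mstn mice. The difference was -0.42 ± 0.17 (SE), or 0.745-fold, with an exact permutation p of 0.0556. The remaining Igf1 probe sets differed by -0.32 (1452014_a_at, limma adjusted p = 0.757) and by -0.29 (1419519_at, limma adjusted p = 0.858), again with all 5 Floxed_Mstn mice below the WT_Mstn median. These 4 probe sets read the same RNA on the same arrays and are not 4 independent results.

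The size of the Igf1 difference turned on single WT_Mstn mice. For the brightest probe set it was -0.64 without WT_Mstn replicate 1 and -0.30 without WT_Mstn replicate 5, and no removal of an array brought it past the threshold. Floxed_Mstn mice spanned 8.88 to 9.51 and WT_Mstn mice 8.98 to 10.33.

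**Figure D2:**
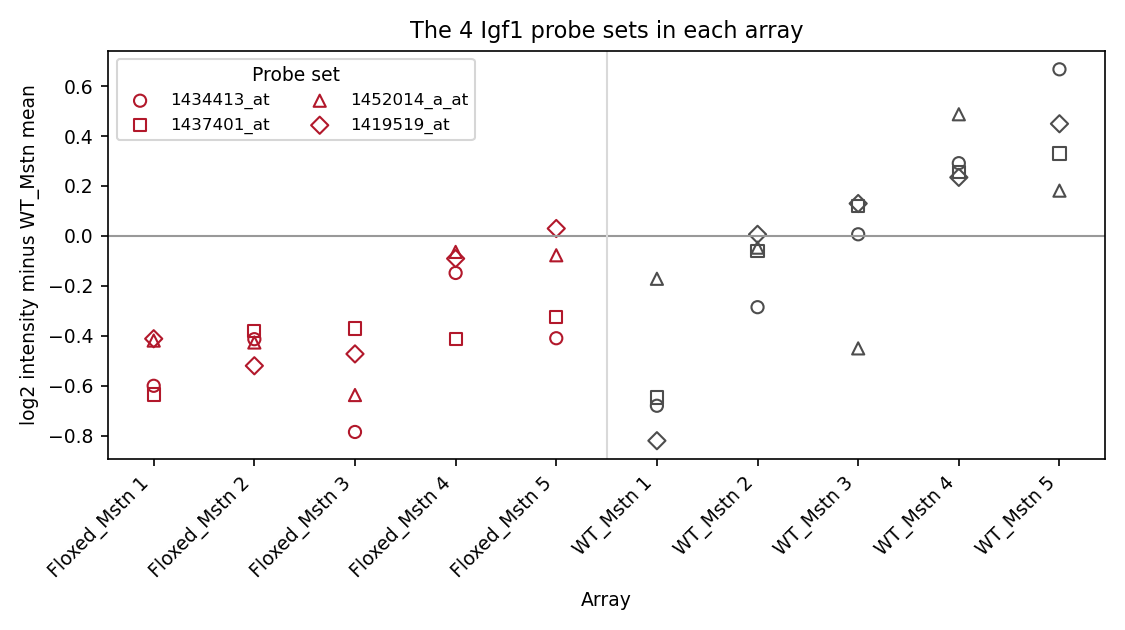
Log2 intensity of the 4 Igf1 probe sets (symbols) in each array, minus the WT_Mstn mean of that probe set (vertical axis), with the 5 Floxed_Mstn arrays on the left and the 5 WT_Mstn arrays on the right. Floxed_Mstn values lie mostly below that mean, and WT_Mstn replicate 1 lies below it on all 4 probe sets.

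Most markers of cells other than muscle fibres had lower mean values in Floxed_Mstn muscle, as did Igf1, whose difference did not pass the threshold. Macrophages and fibroblasts are also known to express Igf1. All 10 fibroblast and matrix markers had lower mean values in Floxed_Mstn muscle, 1 of them (Col1a2) past the threshold on its brightest probe set. Counting every kept probe set, 2 of the 10 genes had at least 1 past the threshold. The mean of the list ran from 10.10 to 10.67 in Floxed_Mstn arrays and from 10.69 to 11.03 in WT_Mstn arrays (log2 intensity). All 10 macrophage and leukocyte markers also had lower mean values, none past the threshold, and their list mean ran from 7.20 to 8.47 in Floxed_Mstn arrays and from 7.99 to 8.73 in WT_Mstn arrays. Among satellite cell markers 7 of 8 were kept, 5 with lower and 2 with higher mean values and none past the threshold, and the list mean ran from 6.95 to 7.32 in Floxed_Mstn and from 7.22 to 7.42 in WT_Mstn arrays. All 7 tendon markers had lower mean values too (median difference -0.81), as did 7 of 8 endothelial, 5 of 6 kept smooth muscle and 5 of 5 kept Schwann cell markers, and adipocyte markers divided 2 to 2, none of them past the threshold. The part of these cells in the Igf1 values, and in the Insr values below, was not tested. In whole muscle, fewer cells of a type and less RNA per cell cannot be told apart. The 10 fibre markers, among them Ckm, Acta1 and Myh4, were all kept, 8 with higher and 2 with lower mean values and none past the threshold. Their list mean lay between 15.09 and 15.16 in Floxed_Mstn and between 15.09 and 15.16 in WT_Mstn arrays, a high level that muscle tissue should have. Fibre content itself was not measured.

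Igf2, the fetal growth factor that is expressed from the paternal copy, had the widest range of the 8 kept genes within Floxed_Mstn muscle. Its kept probe set (1448152_at) had log2 intensities of 6.92, 8.00, 7.61, 8.49 and 8.63 in Floxed_Mstn mice, against 8.28, 8.54, 7.46, 7.48 and 7.37 in WT_Mstn mice. Both groups held high and low mice, and the lowest and the highest value were both in Floxed_Mstn. The mean was 7.93 ± 0.69 in Floxed_Mstn and 7.83 ± 0.54 in WT_Mstn muscle (SD, n = 5 each), a difference of 0.10 with a limma adjusted p of 0.990. The 95% interval ran from 0.616-fold to 1.87-fold, which leaves both directions within the error of these arrays. Its other probe set (1415931_at) lay at 2.29 to 2.32 on all 10 arrays, near the floor, and was not tested.

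The members were set beside a technical measure. RNA of bacterial genes is added to every array as a hybridisation control, and the mean of its 7 probe sets was 13.15 ± 0.25 in Floxed_Mstn and 13.12 ± 0.14 in WT_Mstn arrays (log2 intensity, SD, n = 5 each). The main axis of variation between the arrays, which held 53.6% of the variance of all kept probe sets, ran with these controls across the whole array. Its r with them was 0.97 and its rho 0.87 over the 10 arrays (permutation p = 6e-05 and 0.00236, a single relation), with r of 0.96 when the 2 arrays with the most extreme controls were left out, 0.98 within Floxed_Mstn and 0.99 within WT_Mstn arrays. Among the members, Igf2 had a Pearson's r of -0.77 and a Spearman's rho of -0.78 with these controls (permutation p = 0.00968 and 0.0105, adjusted over the 8 genes examined 0.0774 and 0.0776), which did not pass after adjustment. Of all kept probe sets 18.01% had an r of that size or larger. When the 2 arrays with the most extreme controls were left out r was -0.77, and it was -0.84 within Floxed_Mstn and -0.71 within WT_Mstn arrays. Pik3r1 had, on its brightest probe set (1438682_at), r of 0.61 and rho of 0.73 (permutation p = 0.0598 and 0.0194, adjusted 0.172 and 0.0776). Its r was 0.41 after leaving out those arrays, 0.87 within Floxed_Mstn and 0.42 within WT_Mstn arrays, and 39.7% of all kept probe sets had an r of that size or larger. The dimmest kept Pik3r1 probe set (1425514_at) had r of only 0.0041 with the brightest. It was lowest (6.22) in WT_Mstn replicate 3, where the controls were 13.34, and highest (7.79) in Floxed_Mstn replicate 5, where they were 12.84. The second kept Pik3r1 probe set (1425515_at) had r of 0.72 with the brightest. Only the brightest was tested against the controls, so the relation cannot be stated for the gene as a whole. For the other 6 genes the adjusted permutation p of r lay between 0.172 and 0.76. Within Floxed_Mstn arrays alone, r was -0.98 for Igf2r, -0.93 for Irs1 and 0.57 for Insr. Within WT_Mstn arrays it was 0.13, -0.03 and 0.91 in the same order. These 3 genes were named after their values were seen, without a test on groups of this size. Over the 10 arrays, 40.5%, 47.1% and 64.7% of all kept probe sets had an r of the size of theirs or larger. With the controls as a covariate the Igf2 difference was 0.18 (limma adjusted p = 0.787) and without the 3 arrays of highest controls it was 0.45 (limma adjusted p = 0.609).

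**Figure D3:**
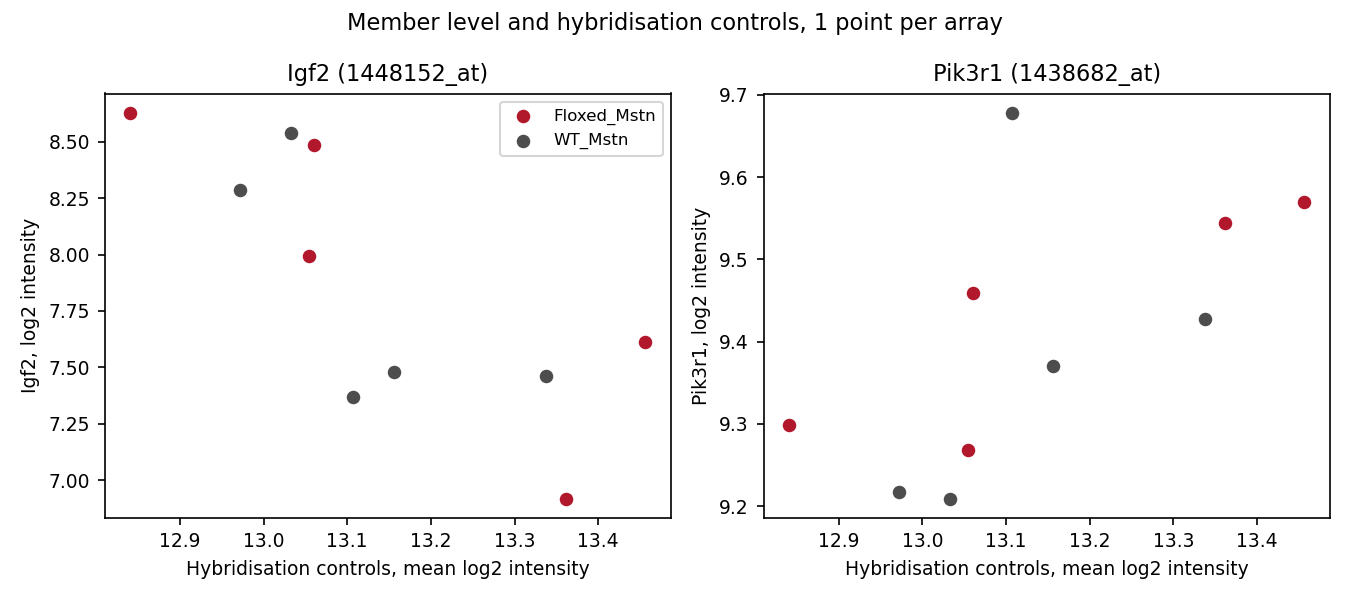
Log2 intensity of the brightest probe sets of Igf2 (1448152_at, left) and Pik3r1 (1438682_at, right) on the vertical axes against the mean log2 intensity of the bacterial hybridisation controls (horizontal axes), 1 point per array, Floxed_Mstn in red and WT_Mstn in grey. Igf2 values are mostly higher where the controls are low (r = -0.77) and Pik3r1 values lower (r = 0.61), neither past 0.05 after adjustment of the permutation p.

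Insr, the insulin receptor, was the receptor with the most separated groups, though they still overlapped. Its kept probe set (1434446_at) had log2 intensities of 10.41, 10.40, 10.48, 10.52 and 10.29 in Floxed_Mstn mice, against 10.52, 10.53, 10.69, 10.60 and 10.51 in WT_Mstn mice. Of the Floxed_Mstn mice 4 lay below the lowest WT_Mstn mouse, and the remaining one lay just above it. The mean was 10.42 ± 0.09 in Floxed_Mstn and 10.57 ± 0.08 in WT_Mstn muscle (SD, n = 5 each), a difference of -0.15 ± 0.07 (SE) or 0.901-fold, with a 95% interval of -0.30 to 0.0034 on the log2 scale. The value alone had an exact permutation p of 0.0159 and an unadjusted limma p of 0.0544. That permutation p was the lowest among the members' brightest probe sets and was not adjusted over them. Over all probe sets Insr did not pass (limma adjusted p = 0.665). Each array left out in turn gave a difference between -0.17 and -0.12. Both other Insr probe sets lay under the filter level on all arrays.

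Igf1r, the receptor through which both IGFs act, gave values of 8.21, 7.98, 8.13, 8.02 and 8.19 in Floxed_Mstn mice, against 8.29, 8.44, 8.01, 7.87 and 8.11 in WT_Mstn mice on its brightest probe set (1428967_at, log2 intensity). The Floxed_Mstn values all lay inside the WT_Mstn range. The difference was -0.04, with a 95% interval of 0.819-fold to 1.16-fold and a limma adjusted p of 0.987. A second probe set (1452982_at) differed by -0.17 (limma adjusted p = 0.905), and 3 others lay under the filter level on all 10 arrays.

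Igf2r, the mannose-6-phosphate receptor that carries IGF-II to the lysosome and is expressed from the maternal copy in the mouse, was nearly level between the groups. Its brightest probe set (1424111_at) had log2 intensities of 9.97, 10.11, 9.92, 10.19 and 10.25 in Floxed_Mstn mice, against 9.95, 10.27, 10.10, 10.08 and 10.03 in WT_Mstn mice. The ranges nearly coincided. The difference was 0.0021, with a 95% interval of 0.872-fold to 1.15-fold and a limma adjusted p of 0.999. Its dim second probe set (1424112_at), above the filter level on 7 of 10 arrays, had a wide interval of 0.660-fold to 1.74-fold (limma adjusted p = 0.987).

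**Figure D4:**
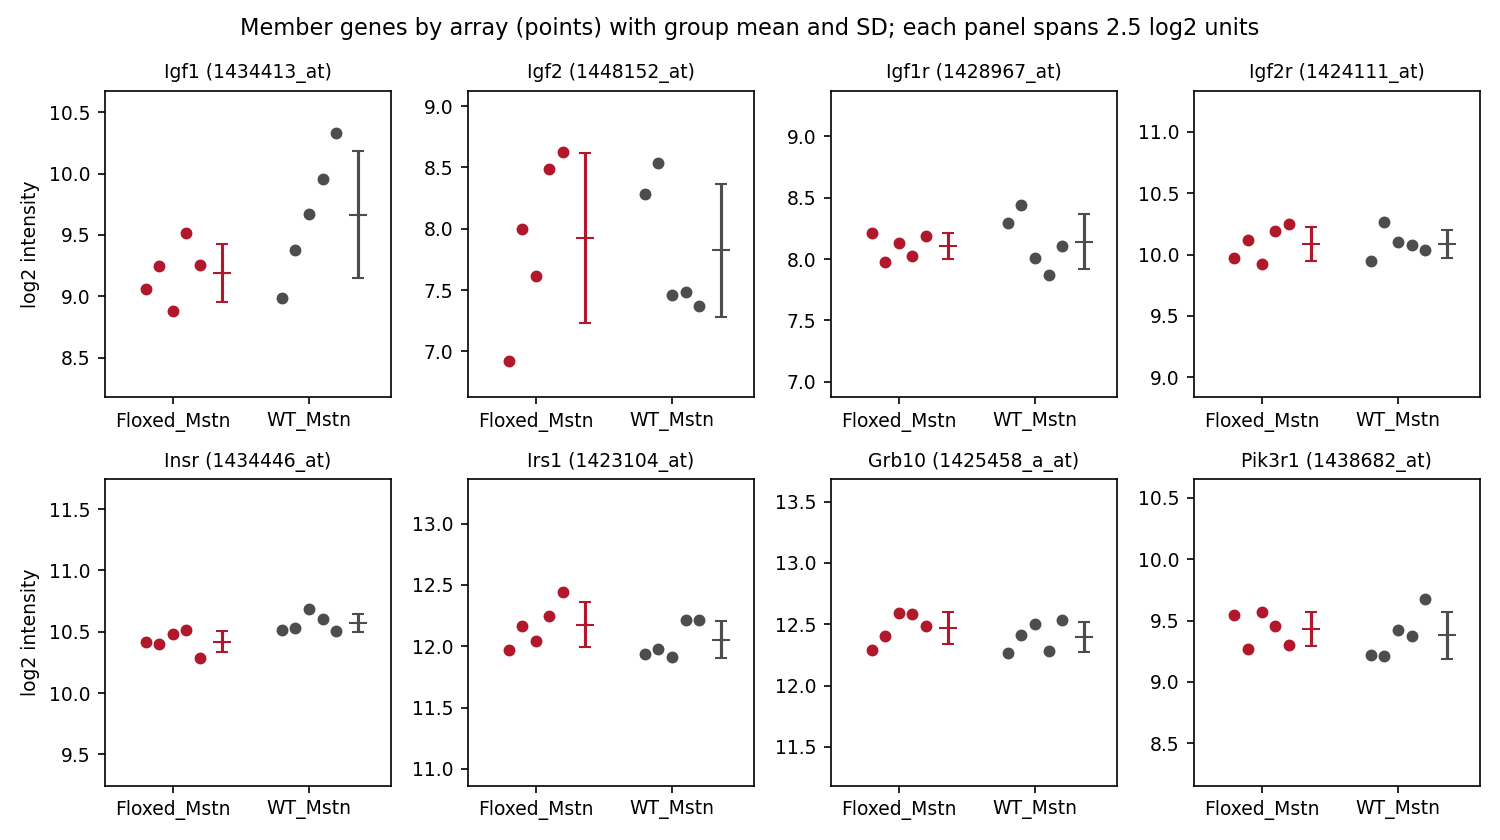
Log2 intensity (vertical axes) of the brightest probe set of the 8 kept genes in each array (points), with group mean and SD (bars), Floxed_Mstn in red and left of WT_Mstn in grey, n = 5 per group. All panels span the same number of log2 units. Igf1 and Igf2 spread far more between mice than Igf2r, Insr or Grb10, and the groups overlap in every panel.

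Irs1, a docking protein phosphorylated by both receptors, had log2 intensities of 11.97, 12.17, 12.05, 12.25 and 12.44 in Floxed_Mstn mice, against 11.94, 11.98, 11.92, 12.22 and 12.21 in WT_Mstn mice (1423104_at). Of the Floxed_Mstn mice 2 lay above the highest WT_Mstn mouse, and the others lay within the WT_Mstn range. The difference was 0.12 ± 0.11 (SE) or 1.09-fold, with a 95% interval of 0.920-fold to 1.29-fold and a limma adjusted p of 0.897. Irs1 lies on chromosome 1, which also carries Mstn, 201 protein-coding genes away in the GRCm38.p6 gene order, and the other 8 genes lie on other chromosomes. Irs2, a docking protein of the same family, had values of 2.79, 2.82, 3.07, 3.06 and 4.23 in Floxed_Mstn mice, against 3.66, 3.06, 2.79, 3.13 and 3.08 in WT_Mstn mice (1443969_at). Only 1 array reached the filter level of 4, so the Irs2 transcript was not compared.

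Grb10, an adaptor that binds the active receptors and restrains them, and an imprinted gene, had log2 intensities of 12.29, 12.40, 12.59, 12.58 and 12.48 in Floxed_Mstn mice, against 12.27, 12.41, 12.50, 12.28 and 12.53 in WT_Mstn mice (1425458_a_at). The highest 2 values were in Floxed_Mstn mice, and the rest of both groups intermingled. The difference was 0.07 ± 0.09 (SE) or 1.05-fold, with a 95% interval of 0.918-fold to 1.20-fold and a limma adjusted p of 0.952. Its other 2 probe sets lay under the filter level on all arrays.

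Pik3r1, which encodes the regulatory subunit that tethers PI3-kinase to phosphorylated IRS proteins, had 3 kept probe sets that did not run one way. The brightest (1438682_at) read 9.54, 9.27, 9.57, 9.46 and 9.30 in Floxed_Mstn mice, against 9.22, 9.21, 9.43, 9.37 and 9.68 in WT_Mstn mice, a difference of 0.05 with a 95% interval of 0.874-fold to 1.22-fold (limma adjusted p = 0.983). The second (1425515_at) differed by -0.14 (limma adjusted p = 0.902). The dimmest (1425514_at) read 7.24, 7.25, 6.97, 7.70 and 7.79 in Floxed_Mstn mice, against 6.85, 7.35, 6.22, 6.99 and 7.41 in WT_Mstn mice, a difference of 0.43 or 1.34-fold (limma adjusted p = 0.765). On this dimmest probe set 2 Floxed_Mstn mice lay above all WT_Mstn mice, and the WT_Mstn mice at 6.85 and 6.22 lay below all Floxed_Mstn mice. The annotation does not say which Pik3r1 transcripts each probe set reads, so the direction for this gene is not settled.

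The members were also compared in pairs from mouse to mouse. Among the 28 pairs of brightest probe sets, Pearson's r over the 10 arrays lay between -0.69 and 0.66, and no pair passed after adjustment over the 28 (lowest adjusted permutation p = 0.58). The lowest r was that of Igf2 with Pik3r1 (r = -0.69, rho = -0.66, permutation p = 0.032 and 0.0432, adjusted 0.58 and 0.685). It was -0.64 with the 2 most extreme Igf2 arrays left out, -0.64 within Floxed_Mstn and -0.83 within WT_Mstn arrays. The highest was that of Igf2 with Igf2r (r = 0.66, rho = 0.62, permutation p = 0.0414 and 0.0607, adjusted 0.58 and 0.685), with 0.50 after leaving out the same arrays, 0.88 within Floxed_Mstn and 0.33 within WT_Mstn arrays. Irs1 had r of 0.93 with Igf2 and 0.93 with Igf2r within Floxed_Mstn arrays, against -0.57 and -0.12 within WT_Mstn arrays. Both pairs were named after their values were seen, without a test on groups of this size. Other pairs ran the other way, such as Igf1 with Pik3r1 (0.90 within WT_Mstn and -0.50 within Floxed_Mstn arrays). The hybridisation controls, with which Igf2 had r of -0.77 and Pik3r1 of 0.61, were not removed from these values. Within Floxed_Mstn arrays r with the controls was -0.93 for Irs1, -0.84 for Igf2 and -0.98 for Igf2r.

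With each group's mean subtracted, the 2 genes whose values over the 10 arrays were most like each member's were picked from 10285 named genes. The likeness is the highest of many Pearson's correlations and is given as a description, without a test. Igf1 was followed most closely by Tmem250-ps (0.954) and by Odc1 (0.936), the rate-limiting enzyme of polyamine synthesis. Igf2 was followed by Epn1 (0.961) and Lman2 (0.960), Igf2r by Nr3c1 (0.970), the glucocorticoid receptor, and Prkce (0.948), and Insr by Efna5 (0.917) and the muscle transcription factor gene Mef2c (0.917). Igf1r was followed by Dock8 (0.910) and Ifitm1 (0.897), Irs1 by Nop2 (0.932) and Nuak1 (0.927), Grb10 by Plxdc1 (0.913) and Bcor (0.892), and Pik3r1 by Rnf111 (0.919) and Fmr1 (0.894). None of these 16 genes passed the threshold between Floxed_Mstn and WT_Mstn muscle. The main axis of the arrays, which ran with the hybridisation controls, was not removed from these values.

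The surroundings of the pathway were read from 8 lists of genes that act beside, above or below the members. None of their kept genes passed over all probe sets. Among binding proteins, which hold IGFs outside the cell, 5 of 8 were kept, 1 with a higher and 4 with lower mean values (median -0.29). Igfbp5 averaged 13.51 ± 0.06 in Floxed_Mstn and 13.10 ± 0.06 in WT_Mstn muscle (log2 intensity, SD, n = 5 each), a difference of 0.41 with groups that did not overlap and a limma adjusted p of 0.0526. Igfbp7 differed by -0.37, also without overlap (limma adjusted p = 0.320), and Igfbp6 by -0.49 (limma adjusted p = 0.524). Of a further list of proteases and stanniocalcins 3 of 6 were kept. Htra1, a secreted serine protease, differed by -0.56 without overlap (limma adjusted p = 0.137). Ide (-0.20) and Stc2 (0.17) had limma adjusted p of 0.808 and 0.985.

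Of the growth hormone axis, which controls Igf1 transcription, all 6 genes were kept, 5 with higher mean values (median 0.14), and Stat5a (0.17), Stat5b (0.15) and Cish (1.09) had limma adjusted p of 0.761, 0.830 and 0.917. Cish, a target of growth hormone signalling, spread widely, with 8.51 ± 2.12 in Floxed_Mstn and 7.43 ± 1.58 in WT_Mstn muscle (log2 intensity, SD, n = 5 each). Among other adaptors and brakes at the receptors 11 of 15 were kept (median 0.01). Grb14, an inhibitory adaptor of the same family as Grb10, averaged 8.40 ± 0.45 in Floxed_Mstn and 9.12 ± 0.13 in WT_Mstn muscle, a difference of -0.72 with groups that did not overlap (limma adjusted p = 0.368), beside -0.65 for Ptprf and -0.19 for Gab1 (limma adjusted p = 0.675 and 0.832). Other PI3-kinase subunits and lipid phosphatases had 8 of 9 kept (median 0.07), with 0.28 for Pik3ip1, 0.11 for Phlpp1 and -0.15 for Pik3cb (limma adjusted p = 0.711, 0.894 and 0.905).

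Downstream, the Akt and mTOR branch had 13 of 15 kept, 7 with higher and 6 with lower mean values (median 0.01), with 0.21 for the mTOR inhibitor gene Deptor, 0.29 for Akt2 and -0.15 for Gsk3a (limma adjusted p = 0.642, 0.715 and 0.730). Of the FoxO factors, which Akt inactivates, and their muscle targets all 9 were kept, 7 with higher mean values (median 0.17). The 3 of lowest p in that list were the targets Fbxo32 (0.47), Gadd45a (0.67) and Trim63 (0.28), with limma adjusted p of 0.195, 0.243 and 0.469. The factors themselves differed by -0.04 (Foxo1), 0.02 (Foxo3) and -0.12 (Foxo4), with limma adjusted p of 0.987, 0.991 and 0.816 (named after their values were seen). Metabolic effectors of insulin had 6 of 7 kept, 4 with lower mean values (median -0.21), with -0.30 for Tbc1d1, -0.41 for Srebf1 and -0.77 for Tbc1d4 (limma adjusted p = 0.570, 0.645 and 0.736). The glucose transporter gene Slc2a4 belongs to the same list and differed by 0.05 (limma adjusted p = 0.942, named after its value was seen).

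**Figure D5:**
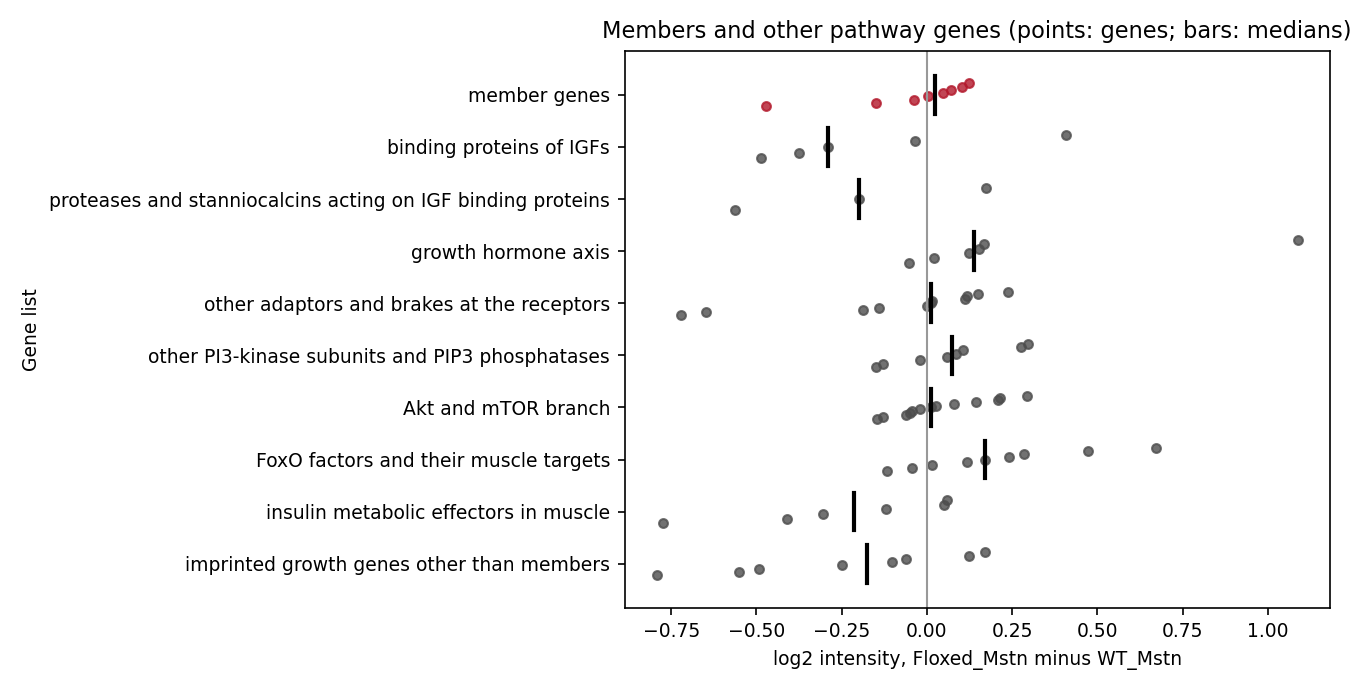
Difference in log2 intensity, Floxed_Mstn minus WT_Mstn (horizontal axis), of the brightest kept probe set of each gene (points), for the 8 kept member genes in red and for 9 lists of other pathway genes in grey, with the median of each row as a bar. The member median is 0.02, list medians run from -0.29 for binding proteins to 0.17 for FoxO factors and their targets, and the point at 1.09 is Cish.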

How the data were processed

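Per the submitters' processing notes, the authors made the deposited linear intensity values with GCRMA, which corrects background by probe sequence, normalizes between arrays and summarises probes into probe sets. Neither its version nor its settings are given in those notes. It sets dim probe sets close to a floor, which compresses their differences. Intensities were converted to log2 without further normalization. Of 45101 probe sets, 34958 carried 1 symbol in the platform annotation, 932 several and 9211 were not listed. The 64 control probe sets and those with a mean log2 intensity under 4 were left out.

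Groups were tested with lmFit and eBayes of limma 3.58.1 (R 4.3.3), two-sided, with Benjamini-Hochberg adjustment and no replicate block. The fit was tested on simulated data. The brightest kept probe set stood for a gene. Correlations used 100000 permutations. Named genes were all members, the 3 genes of lowest p in each pathway list and the 2 most alike genes per member. Members and lists were chosen with earlier results of these data known. The number of arrays limits the precision. Nothing says how the mice were bred or whether arrays were run together. Figures used matplotlib 3.10.9 in Python 3.11.15.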

Additional observations from a re-analysis of the deposited data

Results flagged for a closer look

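All 25 member probe sets were searched for an array far from the other 4 of its group, in 50 groups of arrays. Of these groups 9 held one, where a rate of 1 in 20 would give 2.5. That rate is for normally distributed values, which values near the floor need not be, so the excess is not interpreted. Only 1 of the 9 was among probe sets above the filter level: Igf1 (1437401_at) read 8.85 in Floxed_Mstn replicate 1, where the other Floxed_Mstn arrays read 9.07 to 9.16. Irs2 (1443969_at) read 4.23 in Floxed_Mstn replicate 5, against 2.79 to 3.07 in the other Floxed_Mstn arrays. The remaining 7 lay under a log2 intensity of 4 on every array. Floxed_Mstn replicate 5 was high for Igf1r (1426565_at, 2.57) and Insr (1421380_at, 3.24). WT_Mstn replicate 2 was high for Igf1r (1426565_at, 2.996), and WT_Mstn replicate 5 for Igf1r (1452108_at, 2.65) and Grb10 (1430164_a_at, 2.91). WT_Mstn replicate 3 was flagged for Insr (1450225_at, 2.118, against 2.105 to 2.108 in the other WT_Mstn arrays). It was also flagged for Grb10 (1425457_a_at, 2.151, against 2.135 to 2.139).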

How the results depend on the processing

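No member probe set passed under any of the 22 alternatives run (315 values, lowest limma adjusted p 0.172, for Igf1 1437401_at), and 10 of the 15 never changed sign, among them all 4 of Igf1 and those of Insr, Irs1 and Grb10. Per alternative, 0 or 1 of the brightest member probe sets had an unadjusted p under 0.05. The other 5 had main differences between -0.04 and 0.10. Pik3r1 was -0.035 with array weights and -0.027 without the 3 arrays of highest hybridisation controls. With each array left out in turn Igf2 ran from -0.073 to 0.35, Igf1r from -0.11 to 0.038, Igf2r from -0.037 to 0.047 and its second probe set from -0.072 to 0.27. The count over all probe sets, 21, became 11 with no filter, 36 after quantile normalization, 58 with a variance trend and robust fit, 67 with array weights, 99 with the hybridisation controls as a covariate, and 5 without the 3 arrays of highest controls. It was 17 without Floxed_Mstn replicate 5, 14 without WT_Mstn replicate 1 and 1 to 3 without any other array. The cause was not tested. Median centring gave 17 higher and 11 lower calls, against 11 and 10. With replicate number added as a block only 1 probe set passed, no member among them. Arrays of the same number had correlations of their deviations of -0.51, 0.13, 0.62, -0.20 and 0.19, so the numbers are not taken as pairs. Signal over background limits Irs2 and the second Igf2r probe set.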

Other observations

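Igf2, Igf2r and Grb10 are imprinted genes, and 12 further imprinted genes of growth were read beside them, of which 8 were kept, 6 with lower and 2 with higher mean values in Floxed_Mstn muscle (median -0.18), none past the threshold. Plagl1, a zinc finger gene known as a regulator of imprinted genes in the mouse, averaged 7.98 ± 0.19 in Floxed_Mstn and 8.53 ± 0.25 in WT_Mstn muscle (log2 intensity, SD, n = 5 each), a difference of -0.55 (limma adjusted p = 0.301). Meg3, a long non-coding RNA, averaged 7.60 ± 0.59 in Floxed_Mstn and 8.40 ± 0.18 in WT_Mstn muscle, a difference of -0.79 with groups that did not overlap (limma adjusted p = 0.469). Peg3 differed by -0.49 (limma adjusted p = 0.628).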
